A study of Rattus norvegicus with 18 samples.

Results

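The 8 genes described here are Hmgcs1, Idi1, Fdps, Fdft1, Sqle, Lss, Dhcr7 and Insig1, of which 7 encode enzymes of cholesterol synthesis and Insig1 encodes the sterol-dependent brake on that pathway. They were chosen by name, and each of the 8 names matched 1 of the 31463 rows of the count tables. All 8 were among the 14398 genes that passed the filter on low counts and were tested. None of them encodes a receptor that takes up low-density lipoprotein (LDL), so that uptake is not described here.

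RNA was sequenced from primary neuroglial cultures of the cerebral cortex of newborn Wistar rats, in 18 libraries that form 6 groups of 3. Cultures hold neurons and glia together, and cytosine arabinoside had been used to limit the growth of glia. Control cultures received neither glutamate nor a treatment. Glutamate cultures were exposed to 100 µM glutamate at day 10 in vitro, which damages neurons through overactive glutamate receptors (excitotoxicity), and RNA was taken 4 h later. The Memantine group received 100 µM memantine, which blocks NMDA receptors for glutamate. Glutamate is not named in its label, but by the series' design these cultures served as the positive control of the excitotoxicity model. The groups Glutamate_vesicles, Glutamate_secret and Glutamate_BPC were given material released by glial progenitor cells on the day before glutamate, and these progenitors had been derived from human induced pluripotent stem cells of 1 donor. The first of these names denotes extracellular vesicles. The labels do not say which of the other two stands for the protein fraction and which for the total secretome, and the names are used as given. The methods of the study speak of unrelated cultures for its experiments in general, and neither they nor the labels say whether the 3 libraries of a group came from separate cultures. The p-values measure only the spread between these libraries, which may be technical.

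Cholesterol is made from acetyl-CoA by way of mevalonate, the isoprenoid farnesyl diphosphate, squalene and lanosterol. The genes of this pathway are switched on together by the transcription factor SREBP-2, which is kept in the endoplasmic reticulum by SCAP and INSIG proteins while sterols are plentiful and is released when they are scarce. In the brain cholesterol is made locally, because lipoprotein cholesterol does not cross the blood-brain barrier, and glia supply neurons with part of it. Neurons dispose of cholesterol by oxidising it at carbon 24.

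The libraries held 8409574 to 17206354 counts. Ribosomal RNA took between 3.04% and 26.6% of them in 17 libraries and 43.0% in Control 1, which also had the smallest total. Levels are given as CPM, the counts per 1000000 counts of a library, after TMM scaling (a trimmed mean of log ratios between libraries), whose factors ran from 0.417 to 1.58. CPM is not divided by transcript length, so that levels were compared between libraries and not between genes. Markers of neurons (Snap25, Syt1, Rbfox3, Stmn2 and Tubb3) and of astrocytes were present in every group. Fibroblast genes were low, with a summed level of at most 10.3 CPM, in Glutamate_secret. Over all libraries they had 728 counts of Col1a1, 183 of Col3a1, 20 of Dcn and 12 of Lum.

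The promoters of the 3 genes to which the results below turn most often are shown first, chosen after their values had been seen. Hmgcs1 and Lss had the smallest p in Memantine against Glutamate, and Idi1 varied most between libraries. Each line holds the 250 bases before the RefSeq start of transcription in the rat assembly GRCr8, read 5′ to 3′ on the strand of the gene, with capitals marking CCAAT boxes, the letters CCAAT on either strand (ATTGG on the strand shown). CCAAT boxes bind the factor NF-Y, a known partner of SREBP at sterol-regulated promoters. The Hmgcs1 window is chr2:53382054-53382303 on the plus strand, that of Lss is chr20:12118231-12118480 on the minus strand and that of Idi1 is chr17:66547525-66547774 on the minus strand.
Hmgcs1: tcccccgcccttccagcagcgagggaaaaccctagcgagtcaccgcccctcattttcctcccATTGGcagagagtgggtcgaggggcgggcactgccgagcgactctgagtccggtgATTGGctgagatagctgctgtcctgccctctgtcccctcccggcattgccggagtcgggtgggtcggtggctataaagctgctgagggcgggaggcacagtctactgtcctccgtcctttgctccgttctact
Lss: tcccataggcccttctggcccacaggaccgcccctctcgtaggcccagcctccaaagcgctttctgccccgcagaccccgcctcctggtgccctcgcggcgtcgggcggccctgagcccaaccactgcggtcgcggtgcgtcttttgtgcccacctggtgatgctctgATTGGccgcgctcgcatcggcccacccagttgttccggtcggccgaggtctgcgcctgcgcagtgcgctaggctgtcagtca
Idi1: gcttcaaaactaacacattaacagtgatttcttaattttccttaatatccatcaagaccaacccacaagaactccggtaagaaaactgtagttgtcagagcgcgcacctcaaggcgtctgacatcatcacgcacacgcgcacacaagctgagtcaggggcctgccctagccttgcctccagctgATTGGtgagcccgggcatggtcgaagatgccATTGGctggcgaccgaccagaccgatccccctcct

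The Hmgcs1 window held 2 CCAAT boxes, with their first bases 188 and 133 bases before the start, Idi1 held 2 at 66 and 35 bases, and Lss held 1 at 82 bases. RefSeq gave a promoter for 6 of the 8 genes. Of these, 5 held a CCAAT box (Hmgcs1, Idi1, Fdps, Lss and Insig1) and Dhcr7 did not, whereas 34% of 33469 rat promoter windows of the same length held one. The letters TCACNCCAC, searched on both strands as a form of the sterol response element, occurred in 0 of the 6 windows and in 0.974% of all. A match of letters describes the window and is not evidence of binding.

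Hmgcs1, which encodes the cytosolic HMG-CoA synthase that makes the precursor of mevalonate, had its highest levels under memantine. In Memantine 1, 2 and 3 it stood at 685, 593 and 394 CPM. In Glutamate it stood at 364, 313 and 233 CPM, so that each Memantine library lay above each Glutamate library. Control gave 480, 378 and 311 CPM and overlapped with both groups. The vesicle libraries held 334, 301 and 238 CPM, those of Glutamate_secret 289, 238 and 342 CPM, and those of Glutamate_BPC 280, 252 and 278 CPM. All 3 Memantine libraries were therefore above all 12 libraries of the other glutamate-exposed groups, which ran from 233 to 364 CPM with a median of 285 CPM.

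The mean level of Hmgcs1 was 557 ± 149 CPM (SD, n = 3) under memantine, against 303 ± 65.8 CPM (SD, n = 3) for glutamate alone. The difference was 0.88 on the log2 scale (SE 0.33, 95% interval 0.18 to 1.58). Its unadjusted p was 0.0172 and its adjusted p was 0.679 by the quasi-likelihood test of edgeR with Benjamini-Hochberg adjustment, which is not past the threshold of 0.05. Within replicate numbers, which deviated together in these 2 groups, Memantine held 1.88, 1.89 and 1.69 times the Glutamate level. The adjusted p ran from 0.151 to 1 over the alternatives, and it was lowest without Memantine 3, where the difference was 1.07. Ordered by mean, Memantine was followed by Control (390 ± 85.4 CPM), Glutamate, Glutamate_vesicles (291 ± 48.3), Glutamate_secret (290 ± 52.1) and Glutamate_BPC (270 ± 15.6), and each group overlapped with its neighbour in this order. In the test over all 6 groups, Hmgcs1 had an unadjusted p of 0.0342 and an adjusted p of 0.533. DESeq2 gave it an adjusted p of 0.0482 and so called it, while calling 4.53% of the genes that it tested over the 6 groups. By edgeR, 0.00695% of all genes were called over the 6 groups and 7.75% had an unadjusted p below 0.05. None of the 8 genes was called by edgeR, and Hmgcs1 was the only one with an unadjusted p below 0.05.

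**Figure D1:**
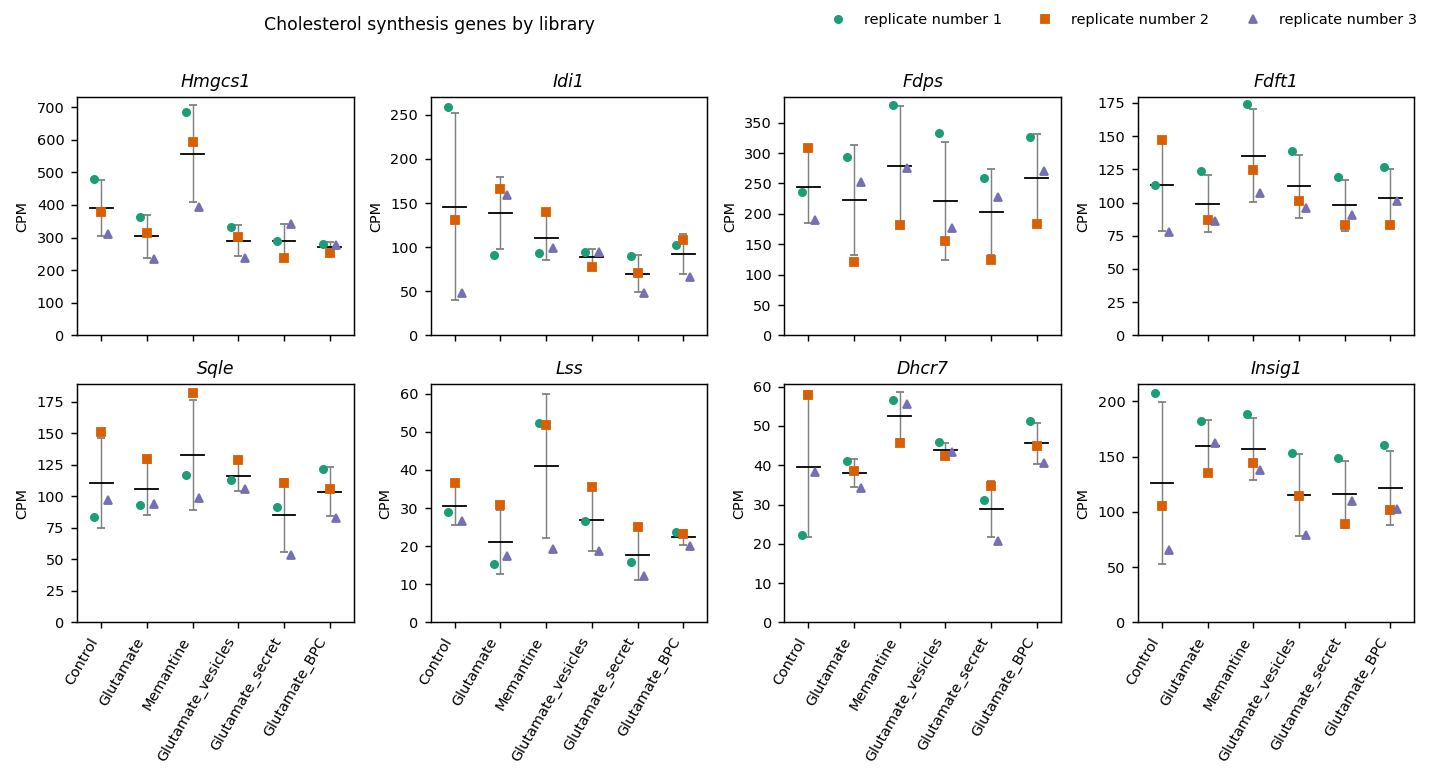
Levels of the 8 cholesterol genes in CPM (y axes, linear, from 0) in the 6 groups (x axes). Symbols are single libraries by replicate number, black lines are group means and grey bars are SD (n = 3). In Hmgcs1 all 3 Memantine libraries lie above the 12 libraries of the other glutamate-exposed groups, and in Idi1 the Control libraries spread from 48.2 to 259 CPM.

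Against Glutamate, Memantine libraries also had higher mean levels of several later enzymes. Lss encodes lanosterol synthase, which closes squalene epoxide into the first sterol. Its level was 52.3, 51.7 and 19.2 CPM in Memantine and 15.2, 30.7 and 17.3 CPM in Glutamate. Memantine 1 and 2 were above all 12 other glutamate-exposed libraries, whose highest value was 35.4 CPM, and Memantine 3 lay within them. The log2 difference was 0.96 (SE 0.42, 95% interval 0.07 to 1.85) with an unadjusted p of 0.0362 and an adjusted p of 0.889 (quasi-likelihood test). The ratios within replicate numbers were 3.43, 1.68 and 1.11, so that replicate 1 carried the largest part. Lss is the least counted of the genes, and at its lowest count of 67, in Glutamate_secret 3, counting error alone amounts to 12.2%.

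Dhcr7 encodes a late reductase of cholesterol synthesis. It was measured at 56.7, 45.7 and 55.5 CPM in Memantine and at 41.2, 38.7 and 34.2 CPM in Glutamate. These ranges did not overlap, and the log2 difference of 0.47 (SE 0.32, 95% interval -0.20 to 1.14) had an adjusted p of 0.999. The share of all genes with ranges apart between groups of 3 is not given here. Separate ranges, in Dhcr7 and in the other genes, are therefore descriptions only. Fdft1, squalene synthase, differed by 0.45 (95% interval -0.24 to 1.14), with levels of 174, 125 and 107 CPM against 124, 87.0 and 86.5 CPM. Sqle, squalene epoxidase, differed by 0.33 (95% interval -0.41 to 1.07), and Fdps, farnesyl diphosphate synthase, also by 0.33 (95% interval -0.62 to 1.28). Fdft1, Sqle and Fdps overlapped between the groups, although each was higher in Memantine within all 3 replicate numbers.

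Idi1 and Insig1 had differences below 0 between Memantine and Glutamate. Idi1, which encodes the isomerase of the 5-carbon isoprenoid units, stood at 93.7, 140 and 98.6 CPM against 91.6, 166 and 159 CPM in Glutamate, a log2 difference of -0.32 (95% interval -1.32 to 0.67). Insig1 stood at 189, 144 and 138 CPM against 182, 135 and 162 CPM, a difference of -0.03 (95% interval -0.88 to 0.83). The 8 genes thus split into 6 with a positive and 2 with a negative difference, and their median was 0.39 beside -0.02 over all genes tested. Called genes numbered 0 of 8, where 0% of all genes were called. With an unadjusted p below 0.05 there were 2 of 8, Hmgcs1 and Lss, where 5.08% of all genes had one.

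In the Memantine group neuronal markers varied between libraries as well. Their summed level ran from 588 to 2973 CPM in Memantine with a median of 1678 CPM, and from 435 to 1014 CPM in Glutamate with a median of 554 CPM. Control held 1851 to 2531 CPM, and the 3 groups given progenitor material held 391 to 952 CPM. Over the 18 libraries this sum and the mean centred log2 CPM of the 8 genes had a Pearson r of 0.64. The same r was -0.70 for microglial markers, -0.52 for those of oligodendrocytes, -0.49 for those of astrocytes and -0.49 for those of oligodendrocyte progenitors. Astrocyte markers summed to 3381 to 9998 CPM in Memantine and to 5114 to 10491 CPM in Glutamate, and microglial markers to 16.4 to 234 CPM and 66.5 to 207 CPM. In bulk RNA fewer cells of a type and less RNA per cell cannot be told apart, and the part of cell composition in the differences above was not tested.

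**Figure D2:**
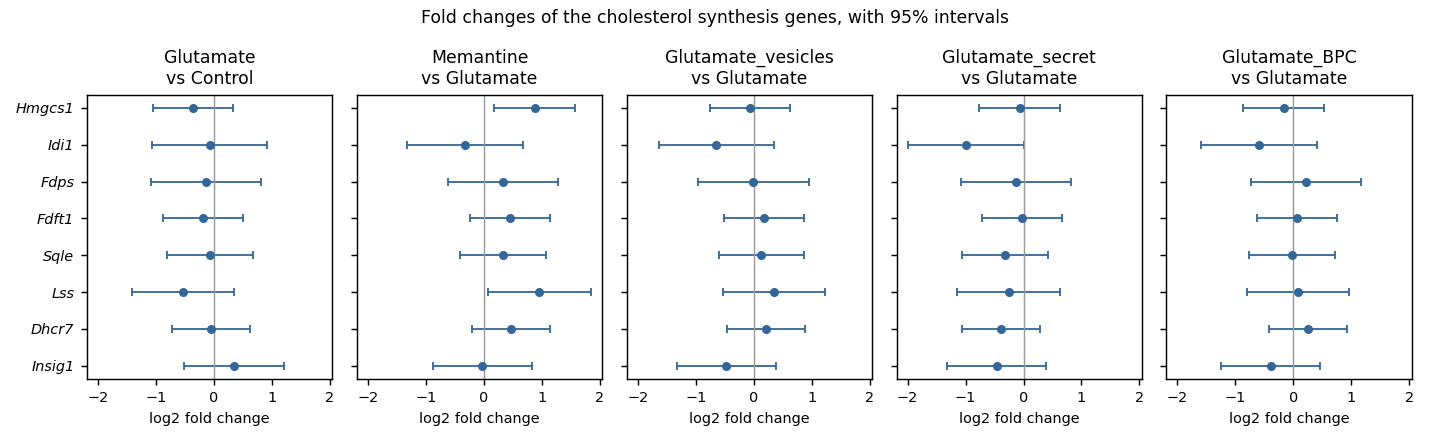
Log2 fold changes (x axes) of the 8 genes (y axes) in Glutamate against Control and in each treated group against Glutamate. Points are edgeR estimates and bars are 95% intervals. The intervals of Hmgcs1 and Lss lie above 0 in Memantine against Glutamate, before adjustment over all genes.

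Glutamate against Control gave no difference in the 8 genes that passed the test. The estimates were below 0 for 7 of the 8, and their median of -0.10 compares with 0.08 over all genes. Lss had the lowest value, -0.54 (SE 0.42, 95% interval -1.42 to 0.35, adjusted p 0.945), with 28.8, 36.5 and 26.7 CPM in Control. Hmgcs1 followed with -0.36 (95% interval -1.06 to 0.33). It was lower in Glutamate within each replicate number, although replicate numbers did not deviate together between these groups. Fdft1, Fdps, Idi1, Sqle and Dhcr7 lay between -0.19 and -0.06. Insig1 alone was above 0, at 0.34 (SE 0.40, 95% interval -0.51 to 1.20). Its Control libraries were far apart, at 208, 105 and 65.5 CPM, and the estimate was 0.91 without Control 1 and 0.04 without Control 3. Of the 8 genes, 0 were called (0% of all genes) and 0 had an unadjusted p below 0.05 (8.11% of all genes).

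Against Control, memantine-treated cultures had positive estimates for 7 of the 8 genes, with a median of 0.29 beside 0.10 over all genes. Hmgcs1 had the highest, 0.52 (SE 0.33, 95% interval -0.18 to 1.21), followed by Lss with 0.42 and Dhcr7 with 0.41. Idi1 was the exception with -0.39 (95% interval -1.39 to 0.60), and without Control 1 its estimate was 0.31. None of the 8 was called, where 0% of all genes were, and none had an unadjusted p below 0.05, where 1.12% of all genes did.

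Of the 3 groups given progenitor material, Glutamate_secret had the lowest mean level of 6 of the genes, while Hmgcs1 was lowest in Glutamate_BPC (270 CPM against 290 CPM) and Insig1 was about level in Glutamate_vesicles and Glutamate_secret (115 and 116 CPM). All 8 estimates against Glutamate were below 0, with a median of -0.29 beside -0.01 over all genes. The Idi1 libraries of this group held 90.1, 70.7 and 48.3 CPM and lay below all 3 Glutamate libraries, the nearest of which held 91.6 CPM. The log2 difference was -0.99 (SE 0.47, 95% interval -2.00 to 0.01), with an unadjusted p of 0.0526 and an adjusted p of 1. Within replicate numbers, which deviated together in these 2 groups, the ratios were 0.984, 0.427 and 0.304, so that replicate 1 hardly differed. With the replicate number as a block over all 18 libraries the difference was -1.08 with an unadjusted p of 0.0235 and an adjusted p of 0.938. Insig1 differed by -0.46, Dhcr7 by -0.39 and Sqle by -0.31. The lowest level of Sqle in the series, 53.0 CPM, and those of Lss, 12.1 CPM, and Dhcr7, 20.8 CPM, were all in Glutamate_secret 3, the library with the second largest share of ribosomal RNA. Fdft1 differed by -0.02, a sign that depended on the scaling. The 8 genes included 0 called, as did all genes (0%), and 0 with an unadjusted p below 0.05, beside 0.681% of all genes.

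Glutamate_secret against Control gave 8 estimates below 0 of 8, with a median of -0.40 beside 0.06 over all genes. Idi1 had the lowest, -1.06 (SE 0.47, 95% interval -2.07 to -0.06), with an unadjusted p of 0.0396 and an adjusted p of 0.392. This value rests on Control 1. Idi1 stood at 259, 131 and 48.2 CPM in Control, where the third library was level with the lowest of Glutamate_secret, and the difference was -0.36 without Control 1. Lss was lower in each Glutamate_secret library (15.8, 25.0 and 12.1 CPM) than in each Control library, with a log2 difference of -0.79 (SE 0.42, 95% interval -1.68 to 0.10, adjusted p 0.493). None of the 8 was called, where 0% of all genes were, and 1 had an unadjusted p below 0.05, where 11.8% of all genes did.

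Glutamate_vesicles was split against Glutamate in these genes, with 4 estimates above and 4 below 0 and a median of 0.07 beside -0.01 over all genes. The values ran from -0.64 for Idi1 (95% interval -1.64 to 0.36) to 0.35 for Lss (95% interval -0.53 to 1.23). Dhcr7, at 46.0, 42.2 and 43.5 CPM, was above all 3 Glutamate libraries by 0.21 (95% interval -0.47 to 0.88). Hmgcs1 differed by -0.06 (95% interval -0.75 to 0.63). Called genes and genes with an unadjusted p below 0.05 each numbered 0 of the 8, beside 0% and 1.08% of all genes.

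Compared with Control, the vesicle group had a median of -0.13 beside 0.03 over all genes, with 6 estimates below 0. Idi1 was at 94.0, 77.9 and 94.7 CPM and differed by -0.71 (95% interval -1.71 to 0.29), which became -0.01 without Control 1. None of the 8 was called or had an unadjusted p below 0.05, beside 0.0139% and 11.6% of all genes.

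Glutamate_BPC was likewise split against Glutamate, with 4 of the 8 above 0 and a median of 0.02 beside -0.05. Idi1 was lowest with -0.59 (95% interval -1.59 to 0.41), at 103, 108 and 66.3 CPM. Dhcr7 was highest with 0.26 (95% interval -0.41 to 0.93), at 51.2, 44.8 and 40.7 CPM. For both measures, called and unadjusted p below 0.05, the 8 genes gave 0, beside 0% and 1.07% of all genes.

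Against Control, Glutamate_BPC had 6 estimates below 0 and a median of -0.11 beside -0.06 over all genes. Idi1 had the lowest, -0.66 (95% interval -1.66 to 0.34), which became 0.04 without Control 1. Hmgcs1 was lower in each BPC library than in each Control library, with a log2 difference of -0.53 (SE 0.33, 95% interval -1.22 to 0.17, adjusted p 0.579). Lss, at 23.7, 23.2 and 20.0 CPM, was also below each Control library and differed by -0.46 (95% interval -1.34 to 0.42). None of the 8 was called, beside 0% of all genes, and none had an unadjusted p below 0.05, beside 11.3% of all genes. The comparisons with Glutamate share its 3 libraries, those with Control share the Control libraries, and their values are not independent of each other.

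The 8 genes differed in how their variation was laid out over the 18 libraries. For Hmgcs1, 68.6% of the variance of log2 CPM lay between the 6 groups and 13.8% between the 3 replicate numbers. Dhcr7 (50.3% and 5.22%) and Lss (45.7% and 35.0%) followed in the share between groups. Fdps had 12.6% between groups and 51.6% between replicate numbers, and Insig1 had 24.8% and 51.3%. The medians over all genes tested were 22.4% and 42.2%. Idi1 had the widest range, 5.37-fold from Control 3 to Control 1, and 53.9% of its variance lay in neither.

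Replicate numbers left a visible order in several genes. Insig1 was highest in replicate 1 in 6 of 6 groups. Hmgcs1, Fdps and Fdft1 were highest there in 5 of 6. Sqle was highest in replicate 2 in 5 groups, with 151, 129, 182, 129 and 110 CPM in Control, Glutamate, Memantine, Glutamate_vesicles and Glutamate_secret. Fdps was lowest in replicate 2 in 5 groups, at 121 to 183 CPM, while its other libraries of the glutamate-exposed groups held 176 to 379 CPM. Lss was lowest in replicate 3 in 5 groups. The labels do not say what a replicate number stands for. The study removed variation by day before its principal component analysis, and no source used here ties a day to a replicate number.

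**Figure D3:**
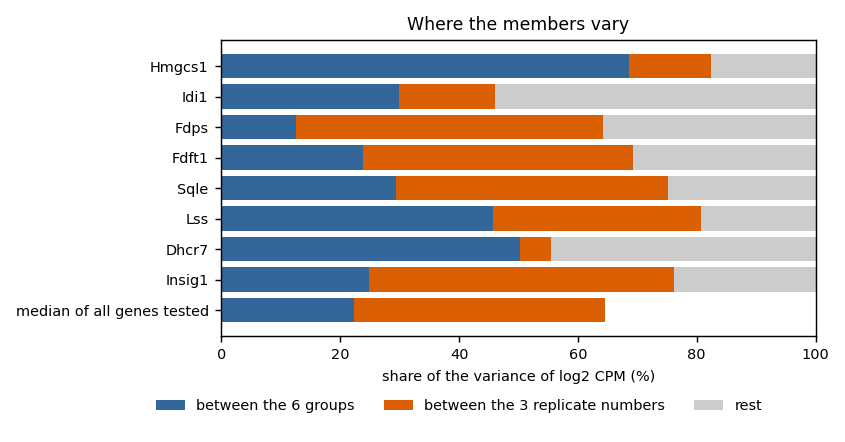
Share of the variance of log2 CPM (x axis, percent) that lay between the 6 groups, between the 3 replicate numbers and in the rest, for each of the 8 genes (y axis) and as medians over the 14398 genes tested. The medians of the last bar were taken separately and do not add up to 100%, and its rest is not drawn. Hmgcs1 has the longest bar for groups and Fdps the shortest.

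The genes were alike in pairs rather than as 1 block. Of the 28 pairs, 25 had a Pearson r above 0 over the 18 libraries, with a median of 0.36. The highest were Sqle with Lss (0.78), Fdps with Fdft1 (0.74) and Sqle with Dhcr7 (0.70). Sqle and Lss catalyse successive steps, as do Fdps and Fdft1. So do Fdft1 and Sqle (0.35) and Idi1 and Fdps (0.02), which were less alike. Hmgcs1 was most like Fdft1 (0.68), and Idi1 and Insig1 were most like each other (0.60). The lowest was Sqle with Fdps (-0.15). These points share their libraries, scaling and replicate numbers, and the coefficients are descriptions.

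**Figure D4:**
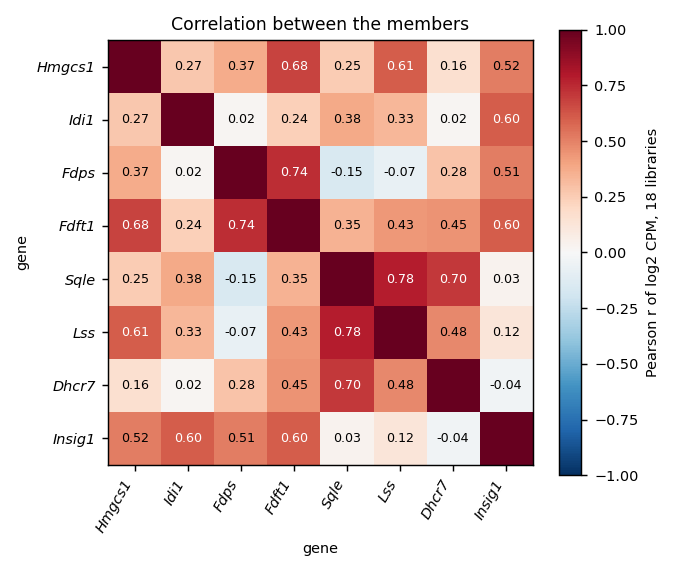
Pearson r of log2 CPM over the 18 libraries between each pair of the 8 genes (both axes), printed in each cell and coloured from -1 (blue) to 1 (red). The highest values are those of Sqle with Lss and Fdps with Fdft1, and the lowest is that of Sqle with Fdps.

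As a mean of centred log2 CPM, the 8 genes were at 0.37 ± 0.26 in Memantine, 0.07 ± 0.38 in Control, -0.01 ± 0.05 in Glutamate, -0.04 ± 0.22 in Glutamate_vesicles, -0.06 ± 0.20 in Glutamate_BPC and -0.34 ± 0.21 in Glutamate_secret (SD, n = 3 each). The lowest Memantine library, at 0.08, lay within the range of Control and of 2 of the groups given progenitor material, and above the Glutamate and Glutamate_secret libraries. Among 11872 other genes whose log2 CPM averaged 1 or more, the 5 most like this mean over the 18 libraries were Fbxw7, a substrate-binding subunit of a ubiquitin ligase (r = 0.87), Hic2, a transcriptional repressor (0.84), Grik4, a kainate receptor subunit (0.84), Pak3, a kinase of the actin cytoskeleton (0.83), and LOC102548695 (0.81). Acat2, the cytosolic thiolase at the entry of the pathway, had 0.69 and Srebf2, the gene of SREBP-2, had 0.68. Other sterol genes were not alike, with -0.31 for Msmo1 and -0.59 for Insig2.

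The remaining 14 enzymes of the listed pathway were all tested, and none was called by edgeR in any of the 9 pairwise comparisons. In Glutamate against Control, 11 of the 14 had estimates above 0, where 8062 of all 14398 genes did. Their median was 0.17 beside 0.08 over all genes. An unadjusted p below 0.05 was found for 2 of the 14, beside 8.11% of all genes. Msmo1, the sterol C4-methyl oxidase that acts after Lss, was at 73.7, 102 and 117 CPM in Control and at 230, 215 and 232 CPM in Glutamate. The ranges did not overlap, and the log2 difference was 1.21 (SE 0.36, 95% interval 0.45 to 1.96), with an adjusted p of 0.296. Lbr, whose product is both a sterol C14 reductase and a protein of the inner nuclear membrane, differed by 0.76 (SE 0.25, adjusted p 0.364). Between the same groups the median summed level of neuronal markers was 2374 CPM in Control and 554 CPM in Glutamate. That of astrocyte markers was 2966 and 6231 CPM, that of oligodendrocyte markers 473 and 727 CPM, and that of microglial markers 65.3 and 70.4 CPM. The part of these cell types in the values of Msmo1 and Lbr was not tested.

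Msmo1 and Lbr also stood above Control in the groups given progenitor material. In Glutamate_vesicles Msmo1 was at 224, 315 and 227 CPM, a log2 difference from Control of 1.38 (SE 0.36, adjusted p 0.184), and in Glutamate_BPC it was at 284, 279 and 199 CPM, with a difference of 1.38 (SE 0.36, adjusted p 0.295). Lbr differed from Control by 0.81 in Glutamate_vesicles, 0.75 in Glutamate_secret and 0.79 in Glutamate_BPC. Memantine held 109, 148 and 246 CPM of Msmo1, overlapping with Control and with Glutamate, with a difference of 0.78 from Control (SE 0.35, adjusted p 1). Calls of these genes depended on the tool. DESeq2 called Msmo1 in Glutamate (adjusted p 0.0259), in Glutamate_vesicles (0.00495) and in Glutamate_BPC (0.00911) against Control. It called Lbr in these comparisons (0.0343, 0.0151 and 0.0270) and in Glutamate_secret against Control (0.0181). The shares of all genes that DESeq2 called were 1.55% in Glutamate, 3.03% in Glutamate_vesicles, 3.06% in Glutamate_secret and 1.68% in Glutamate_BPC. In Glutamate_vesicles against Control, where replicate numbers deviated together, edgeR with the replicate number as a block called 3.74% of genes, Msmo1 among them (1.39, adjusted p 0.0346). That block was fitted over all 18 libraries, and replicate numbers deviated together in only 4 of the 9 comparisons.

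**Figure D5:**
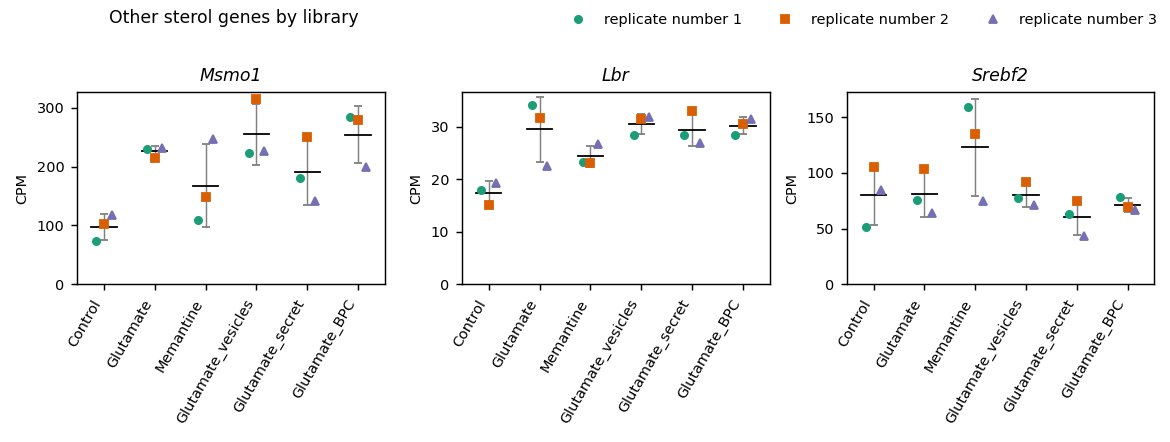
Levels in CPM (y axes, linear, from 0) of Msmo1, Lbr and Srebf2 in the 6 groups (x axes), drawn as single libraries with group means and SD (n = 3). Msmo1 and Lbr have their lowest means in Control, and the 2 highest Srebf2 libraries are Memantine 1 and 2.

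Further members of this list had an unadjusted p below 0.05 without passing the adjusted threshold. Hsd17b7, a sterol 3-keto reductase, had at most 4.67 CPM and differed from Control by 1.40 in Memantine (SE 0.59, adjusted p 1). It also had an unadjusted p below 0.05 in Glutamate_vesicles and in Glutamate_BPC against Control. Cyp51, the sterol C14 demethylase, had one in Glutamate_BPC against Control. The latter mentions were added after the values had been seen. Against Control, 2 of the 14 enzymes had such a p in Memantine, 3 in Glutamate_vesicles and 4 in Glutamate_BPC. The shares of all genes were 1.12%, 11.6% and 11.3%.

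Of the 8 genes listed for SREBP control, 7 were tested, and none was called or had an unadjusted p below 0.05 in a pairwise comparison. Srebf2 was at 159, 135 and 74.4 CPM in Memantine and at 75.6, 103 and 64.1 CPM in Glutamate. Memantine 1 and 2 were the highest libraries of the series, and the log2 difference was 0.60 (SE 0.35, 95% interval -0.14 to 1.34, adjusted p 0.999). Scap, the sterol sensor that escorts SREBP, ranged from 16.8 CPM in Control 1 to 85.0 CPM in Glutamate_vesicles 2, and differed by 0.16 between Memantine and Glutamate (95% interval -0.75 to 1.06).

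Fatty acid genes that are also under SREBP numbered 8, all tested and none called. Against Glutamate, all 8 were lower in Glutamate_secret by estimate, where 7342 of all 14398 genes were lower. Their median was -0.53 beside -0.01 over all genes, and 0 had an unadjusted p below 0.05, beside 0.681% of all genes. Against Control, 3 had an unadjusted p below 0.05 in Glutamate_BPC, where 11.3% of all genes did. Acss2, acetyl-CoA synthetase, was at 66.9, 31.3 and 72.1 CPM against 19.1, 21.4 and 28.2 CPM in Control, a difference of 1.31 (SE 0.41, adjusted p 0.300). The desaturases Scd (2.09) and Fads1 (0.96) were the other two, named after their values had been seen, with adjusted p of 0.303 and 0.382.

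The 6 genes of sterol storage, oxidation and export included none called by edgeR without a block. Cyp46a1, the neuronal 24-hydroxylase that removes cholesterol from the brain, was at 40.8, 56.3 and 59.6 CPM in Control. It stood at 24.2, 18.5 and 14.8 CPM in Glutamate_vesicles, a log2 difference of -1.45 (SE 0.48, adjusted p 0.241, and 0.0464 with the replicate number as a block over all 18 libraries). In Glutamate_secret it was at 25.0, 13.5 and 24.3 CPM, a difference of -1.32 (SE 0.48, adjusted p 0.288). Neuronal markers were lower in these groups too, at 512 to 800 CPM and 391 to 952 CPM against 1851 to 2531 CPM in Control, and their part in the Cyp46a1 values was not tested. In Glutamate alone Cyp46a1 was at 31.1, 15.8 and 44.2 CPM, a difference from Control of -0.79 (SE 0.48, adjusted p 0.817), with overlapping ranges. Glutamate_BPC held 26.6, 17.5 and 44.6 CPM of it. Abcg4, a sterol exporter named after its value had been seen, was at most 6.46 CPM in Glutamate_secret and differed from Control by -1.98 (adjusted p 0.365). In Glutamate alone Abcg4 differed from Control by -1.69 (SE 0.83, adjusted p 0.649). Control 1 held 2.57 CPM of Abcg4, within the range of Glutamate_secret. Ch25h, the 25-hydroxylase, was at most 1.38 CPM in any library, and its difference of 2.93 in Glutamate_BPC against Glutamate (SE 1.18, adjusted p 1) rests on few counts.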

How the data were processed

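RNA was measured in 18 libraries, 3 in each of 6 groups taken from the labels. The authors deposited expected counts per gene, estimated read counts without scaling between libraries, which by their methods came from Salmon and tximport. The submitters' notes name STAR, Salmon and rn6. The counting is not stated to use strand, so that overlapping genes can share reads. Library kit and instrument differ between labels and methods.

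Counts were rounded, since the planned design assumed whole counts. Genes were kept by filterByExpr (minimum count 10, minimum total count 15), libraries were scaled by TMM, and a model of group means was fitted over the 18 libraries together. The two-sided quasi-likelihood test of edgeR 4.0.16 (R 4.3.3) was used with Benjamini-Hochberg adjustment, calling adjusted p below 0.05. Log2 CPM used a prior count of 2. The scripts were tested on simulated data. Alternatives were the likelihood-ratio test of edgeR, which the study used, DESeq2 1.42.0, RLE factors, no filter, a replicate block, the 78 ribosomal RNA rows left out or their share as a covariate, fits of 2 groups, and each library left out.

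Equal replicate numbers deviated together (correlation above 0.1 for all 3 numbers) in 4 of 9 comparisons, namely Memantine, Glutamate_secret and Glutamate_BPC with Glutamate, and Glutamate_vesicles with Control. This pairing comes from the check and not from the labels. The replicate block was fitted over all 18 libraries with the same effect of a number in every group, also where numbers did not deviate together. No pair of libraries of a group agreed within sampling noise.

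The genes and lists were chosen with earlier results of these data known. The 8 genes, Srebf2 and Scap are always named. Of the 4 pathway lists, called genes or else at most 3 with the smallest unadjusted p below 0.05 are named in each comparison, with the 5 genes most like the mean of the 8. 1 item that this rule names is not reported here. Promoters are those of RefSeq for GRCr8, matched by symbol.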

Additional observations from a re-analysis of the deposited data

How the results depend on the processing

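No member was called in any pairwise comparison under any alternative, and the p-values and counts near the threshold moved. In the test of all 6 groups DESeq2 called 1 member, Hmgcs1. Members with an unadjusted p below 0.05 in that test numbered 0 without the filter, 2 with the replicate block, and 0 to 2 when single libraries were left out, with 0 without Memantine 1 or Memantine 2 and 2 without Memantine 3, Control 3 or Glutamate 2. It was 0 as well without Glutamate_vesicles 2 or 3, Glutamate_secret 1 or 2, or any one Glutamate_BPC library. In Memantine against Glutamate the count of 2 became 0 when only these 2 groups entered the fit and ran from 0 to 2 over left-out libraries, with 0 without Glutamate 3 or Memantine 1, and 1 without Glutamate 1 or Memantine 2. In Glutamate_secret against Glutamate the count of 0 became 1 with the replicate block and 1 in the fit of 2 groups, and ran from 0 to 1 over left-out libraries (1 without Glutamate 1 or Glutamate_secret 1). In Glutamate_secret against Control the count of 1 became 2 with the replicate block and 0 in the fit of 2 groups, and ran from 0 to 1 (0 without Control 2 or Glutamate_secret 3). In Memantine against Control it became 1 with the share of ribosomal RNA as a covariate and ran from 0 to 1 (1 without Control 1, Control 2 or Memantine 3). It ran from 0 to 1 in Glutamate against Control (1 without Control 1), and in Glutamate_vesicles and Glutamate_BPC against Control (1 without Control 3). The replicate block changed no other call of the members. With it the adjusted p was 0.0475 for Cyp46a1 in Glutamate_secret against Control and 0.0491 for Msmo1 in Glutamate_BPC against Control, where replicate numbers did not deviate together. There, samples may share only a number.

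Of 33 named fold changes with 461 alternative values, 13 values of 6 fold changes turned in sign. Fdft1 in Glutamate_secret against Glutamate was 0.0142 by DESeq2, 0.0146 with RLE factors and 0.0247 with the ribosomal RNA covariate, and -0.19 to 0.17 over left-out libraries, above 0 without Glutamate 1, Glutamate_secret 2 or Glutamate_secret 3. Insig1 in Glutamate_secret against Control was 0.0531 with that covariate and -0.43 to 0.44 over left-out libraries. Left-out libraries gave -0.81 to 0.31 for Idi1 in Memantine against Control, -1.07 to 0.0399 for Idi1 and -0.0758 to 0.59 for Dhcr7 in Glutamate_BPC against Control, and -0.13 to 0.53 for Dhcr7 in Glutamate_vesicles against Control. In all of these, leaving out Control 1 gave the turned sign, except in Fdft1, where Control does not enter. The cause was not tested.

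Genes called among all genes varied far more with the tool. In Glutamate against Control they numbered 0 by the quasi-likelihood test, 45 by the likelihood-ratio test, 221 by DESeq2 and 166 with the replicate block. In Glutamate_vesicles against Control they numbered 2, 160, 455 and 538, in Glutamate_secret against Control 0, 223, 436 and 700, in Glutamate_BPC against Control 0, 61, 239 and 251, and over the 6 groups 1, 587, 699 and 497. In Memantine against Glutamate they numbered 0, 0, 1 and 0, and 254 without Memantine 3. With 3 libraries a group, the SE of the members' pairwise log2 differences was 0.32 to 0.47, and differences of that size were not detectable. Larger ones also went uncalled, such as 0.88 for Hmgcs1 in Memantine against Glutamate (SE 0.33). Another was -1.06 for Idi1 in Glutamate_secret against Control (SE 0.47).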
